A study of Mus musculus with 2 samples.

Results

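Arginine feeds several competing enzymes in myeloid cells at a wound, and 6 genes of that network are described here: the transporter gene Slc7a2, the nitric oxide synthase gene Nos2, the arginase genes Arg1 and Arg2, the recycling enzyme gene Ass1 and the polyamine enzyme gene Odc1. They were matched by symbol to the gene list of the deposited count tables, and all 6 of the 32285 listed genes were found. The cells came from injured hindlimbs of male C57BL/6 mice aged 8 to 10 weeks. All animals had a dorsal burn over 30% of the body surface together with a cut left Achilles tendon, an injury after which bone forms in soft tissue (traumatic heterotopic ossification), and the tendon site was taken at day 7 and dissociated without sorting. The control library came from mice with this injury alone. The irradiated library came from mice with the same injury that also received a single 7 Gy dose through a 2 cm collimator; the labels describe arms irradiated on day 1 or day 3, the series text points to day 3 in wording that leaves the day uncertain, and the number of mice pooled per library is not given. With 1 library per group there is no replicate check and no test of the treatment, and library and treatment cannot be told apart.

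Macrophages can send arginine down opposing routes. Inducible nitric oxide synthase, the product of Nos2, turns arginine into nitric oxide and citrulline and is the textbook enzyme of inflammatory macrophages. Arginase 1, the product of Arg1, splits arginine into urea and ornithine and is the textbook enzyme of alternatively activated and wound-healing mouse macrophages, and ornithine feeds polyamine and proline synthesis. Because both enzymes draw on the same arginine, their genes are often used as opposite markers, and whether single cells carry the RNA of both is the question asked of these data.

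Values are counts of unique molecular identifiers (UMIs, individual captured RNA molecules). A level is the summed UMIs of a gene over the cells of a type divided by all UMIs of those cells and put on the usual CPM scale, with an exact Poisson 95% interval where one is given. A difference between libraries is called higher or lower where it was at least 1.5-fold and the exact interval of the ratio left out equality, among genes with at least 20 UMIs over both libraries. All intervals cover counting error only. The control library had 8744 kept cells and the irradiated library 7126, from tables of 180080740 and 111753092 UMIs, and the median kept cell held 13242 and 10134.5 UMIs. Only 32 cell barcodes occurred in both libraries, of which 21 were kept in both and 1 lay in the macrophage and monocyte-like class in both.

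Cells were clustered with the 6 genes left out and named from marker genes, so all names carry "-like". The macrophage and monocyte-like class held 1937 control and 2614 irradiated cells, 22.2% and 36.7% of the kept cells, with median depths of 7661 and 9670 UMIs. It was made of different clusters in the 2 libraries. Resident-like macrophages (Mrc1, Folr2) were 35.5% of the control class and 13.4% of the irradiated class. Wound macrophage-like cells (Mmp12, Il7r) were 113 control cells and 472 irradiated cells, 5.83% and 18.1% of the class. Inflammatory monocyte-like cells (Chil3, Ccr2, Ly6c2) made up 31.6% and 22.5%, a second monocyte-like cluster led by interferon-response genes 1.96% and 12.7%, class II high macrophage-like cells 8.21% and 22.0%, and a cluster led by Ms4a7 and Pf4 that reached no subtype name 16.2% and 10.9%. The remaining 13 and 11 cells sat in a small cluster led by mast cell protease genes. Among its leading genes, the wound macrophage-like cluster had as many neutrophil markers as macrophage markers, 3 of each in its first 10. Its 12 macrophage and monocyte markers all had at least 1 UMI summed over its cells. So did 10 of the 11 neutrophil markers in the control library and all 11 in the irradiated library. Detection alone thus does not tell the 2 lineages apart. By level, the neutrophil markers of the cluster were low. Ly6g was at 0 UMIs in the control library and 1 UMI in the irradiated library, and S100a8 was at 299 and 397 CPM. Summed over the 11 neutrophil markers, the cluster had 716 and 1250.4 CPM, against 42358 CPM or more in every neutrophil-like cluster.

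Nos2 RNA was highest in the wound macrophage-like cluster in both libraries. Nos2 (chr11:78920787-78960254 in GRCm38, plus strand, Ensembl gene ENSMUSG00000020826) encodes the inducible nitric oxide synthase. In the wound macrophage-like cluster its level was 265 CPM (interval 235 to 299) in the control library and 621 CPM (598 to 643) in the irradiated library. That cluster held 46.7% of all Nos2 UMIs of the control library and 83.6% of those of the irradiated library. In the rest of the macrophage and monocyte-like class the level was 0.999 and 4.04 CPM. T and NK-like cells, which should lack the gene, had 0 CPM in the control library, where a count of 0 allows up to 3.68 CPM, and 7.48 CPM in the irradiated library. The low levels in the rest of the class lie under both of these values, so no Nos2 expression is read from them. Endothelial-like cells had 17.2 and 17.5 CPM and held 28.9% and 2.6% of the Nos2 UMIs of the control and irradiated libraries, and neutrophil-like cells held 4.84% and 6.78%. Osteoclast-like cells had no Nos2 UMI among 43 and 22 cells, which allows a share of up to 6.98% and 13.6% of cells with a UMI.

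Arg1 RNA was also highest in that cluster, with a wider spread over the other macrophages. Arg1 (chr10:24915221-24927484, minus strand, ENSMUSG00000019987) encodes the cytosolic arginase. In the wound macrophage-like cluster it stood at 2174 CPM (2084 to 2267) in the control library and 3883 CPM (3827 to 3939) in the irradiated library. The Ms4a7 and Pf4 cluster came next with 169 and 562 CPM, followed by resident-like macrophages with 128 and 440 CPM. Inflammatory monocyte-like cells had 51.8 and 226 CPM, and the interferon-led monocyte-like cluster 39.6 and 159.6 CPM. In each library the levels of these first 3 types in the order were separated by more than counting error. Class II high macrophage-like cells had 3.38 and 34.6 CPM, and neutrophil-like cells 40.6 and 34.2 CPM. T and NK-like cells had 36.8 and 39.4 CPM from 3 and 12 cells with a UMI, 2.05% and 4.62% of cells at median depths of 4346 and 6212 UMIs. The class II high levels lie below those values. The neutrophil-like level lies above the T and NK-like level in the control library, with overlapping counting intervals (33.1 to 49.4 and 24.8 to 52.5 CPM), and below it in the irradiated library. After thinning to 2000 UMIs a cell, an Arg1 UMI was found in 0.436% and 2.09% of neutrophil-like cells and in 0.775% and 3.24% of T and NK-like cells, so no Arg1 expression is read from the neutrophil-like or class II high level. Osteoclast-like cells had Arg1 at 39.3 and 53.8 CPM. The wound macrophage-like cluster held 42.0% of the control library's Arg1 UMIs and 73.7% of the irradiated library's, and keratinocyte-like cells held 20.8% and 2.36%.

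Arg2 had a different main source, the neutrophils. Arg2 (chr12:79130777-79156301, plus strand, ENSMUSG00000021125) encodes the mitochondrial arginase. In neutrophil-like cells, 831 in the control library and 1269 in the irradiated library, it was at 1059 CPM (1019 to 1100) and 1082 CPM (1055 to 1109). At least 1 Arg2 UMI was found in 80.1% and 86.8% of these cells, at median depths of 2104 and 3146 UMIs. Thinned to 2000 UMIs a cell, the shares were 78.2% and 79.0%. In T and NK-like cells, the comparison for background, 2.74% and 4.62% had a UMI. The 3 neutrophil-like clusters ranked above all macrophage clusters in both libraries: cluster 2 had 1206 and 1215 CPM, the shallow cluster 8 had 962 and 1015 CPM, and the cluster high in Ccl3 and Ccl4 had 916 and 746 CPM. Wound macrophage-like cells followed with 273 and 466 CPM. The other macrophage and monocyte-like clusters, apart from the small mast-led cluster, ran from 53.2 to 187 CPM in the control library and from 76.3 to 185 CPM in the irradiated library, with inflammatory monocyte-like cells highest in both.

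Ass1, by contrast, was highest in dendritic-like cells among the myeloid types. Ass1 (chr2:31470207-31520672, plus strand, ENSMUSG00000076441) encodes argininosuccinate synthase, which joins citrulline to aspartate on the way back to arginine. Migratory dendritic-like cells had 154 and 241 CPM, and conventional type 2 dendritic-like cells 115 and 175 CPM. Wound macrophage-like cells had 116 and 123 CPM. Inflammatory monocyte-like cells stood at 73.9 and 102 CPM, while resident-like macrophages had 3.12 and 11.9 CPM and neutrophil-like cells 7.64 and 4.82 CPM. The resident-like level lies in the range of neutrophil-like and endothelial-like cells, the latter at 15.4 and 23.8 CPM, and cannot be set apart from free RNA. Keratinocyte-like cells held 76.4% of the control library's Ass1 UMIs and 48.5% of the irradiated library's.

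Slc7a2 and Odc1 were opposite cases, 1 gene limited to few types and 1 present in all. Slc7a2 (chr8:40862396-40922308, plus strand, ENSMUSG00000031596) encodes a cationic amino acid transporter that imports arginine. Among myeloid types it stood out in wound macrophage-like cells, at 59.0 CPM (45.0 to 75.9) and 111 CPM (102 to 121), against 3.53 and 3.80 CPM in the rest of the macrophage and monocyte-like class. T and NK-like cells had 4.90 CPM (1.34 to 12.6) and 1.99 CPM (0.543 to 5.11), from 4 UMIs in each library. The rest of the class was below that in the control library and above it in the irradiated library, inside the counting interval both times, and cannot be set apart from free RNA. Mesenchymal-like cells, at 165 and 113 CPM, held 71.0% of the control library's Slc7a2 UMIs and 34.4% of the irradiated library's. Odc1 (chr12:17544794-17551505, plus strand, ENSMUSG00000011179) encodes ornithine decarboxylase, the first enzyme of polyamine synthesis. It was found in every myeloid type, from 36.5 CPM in neutrophil-like cluster 2 to 221 CPM in the Ms4a7 and Pf4 cluster in the control library. In the irradiated library the range was 45.2 CPM in migratory dendritic-like cells to 239 CPM in the Ms4a7 and Pf4 cluster. T and NK-like cells had more than any myeloid type, 420.4 and 410.3 CPM.

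**Figure D1:**
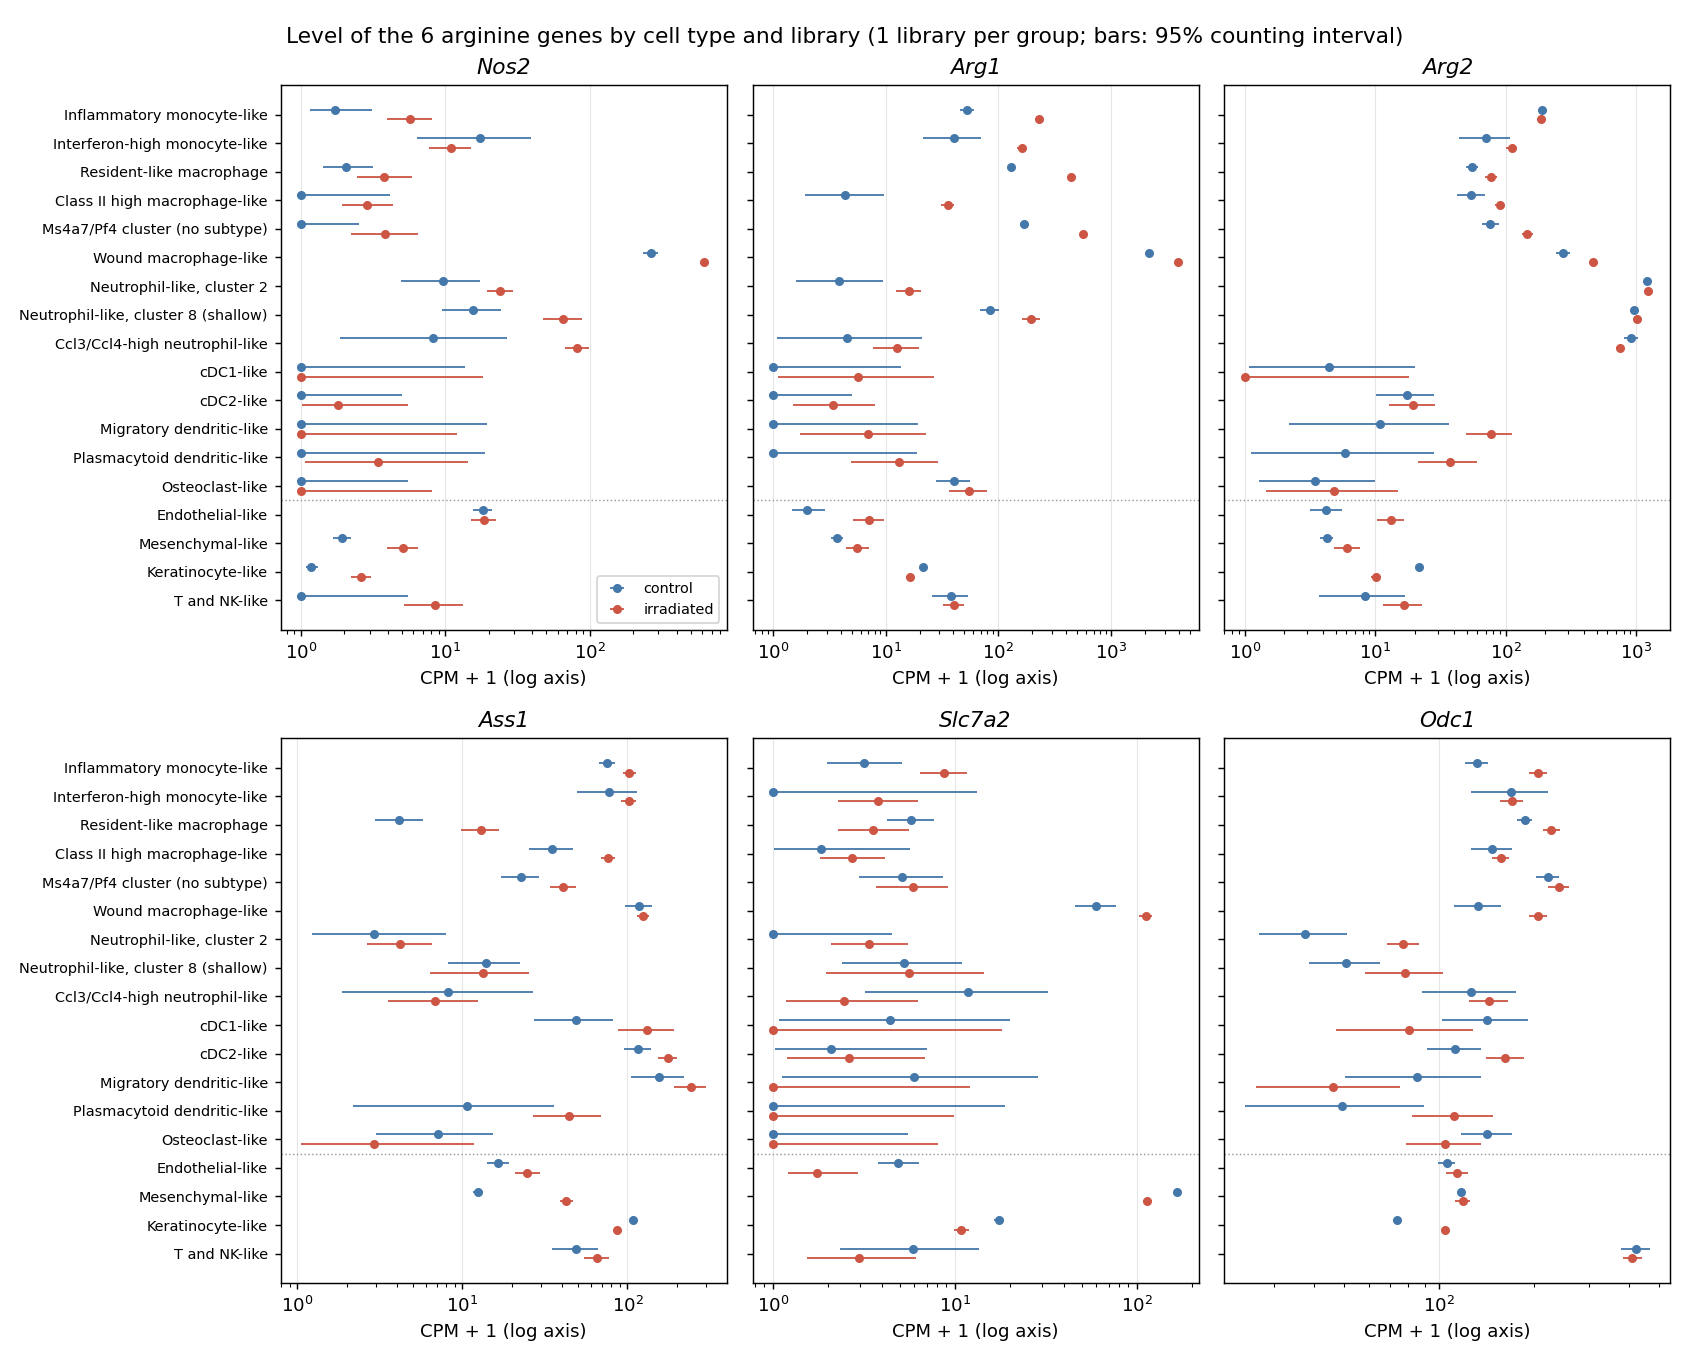
Level of each of the 6 genes (CPM + 1, log axis) in 14 myeloid types and, below the dotted line, 4 other cell types, with control in blue and irradiated in red and bars for the 95% counting interval of 1 library each. Nos2, Arg1 and Slc7a2 peak among myeloid types in the wound macrophage-like cluster, Arg2 in the 3 neutrophil-like clusters and Ass1 in migratory dendritic-like cells.

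**Figure D2:**
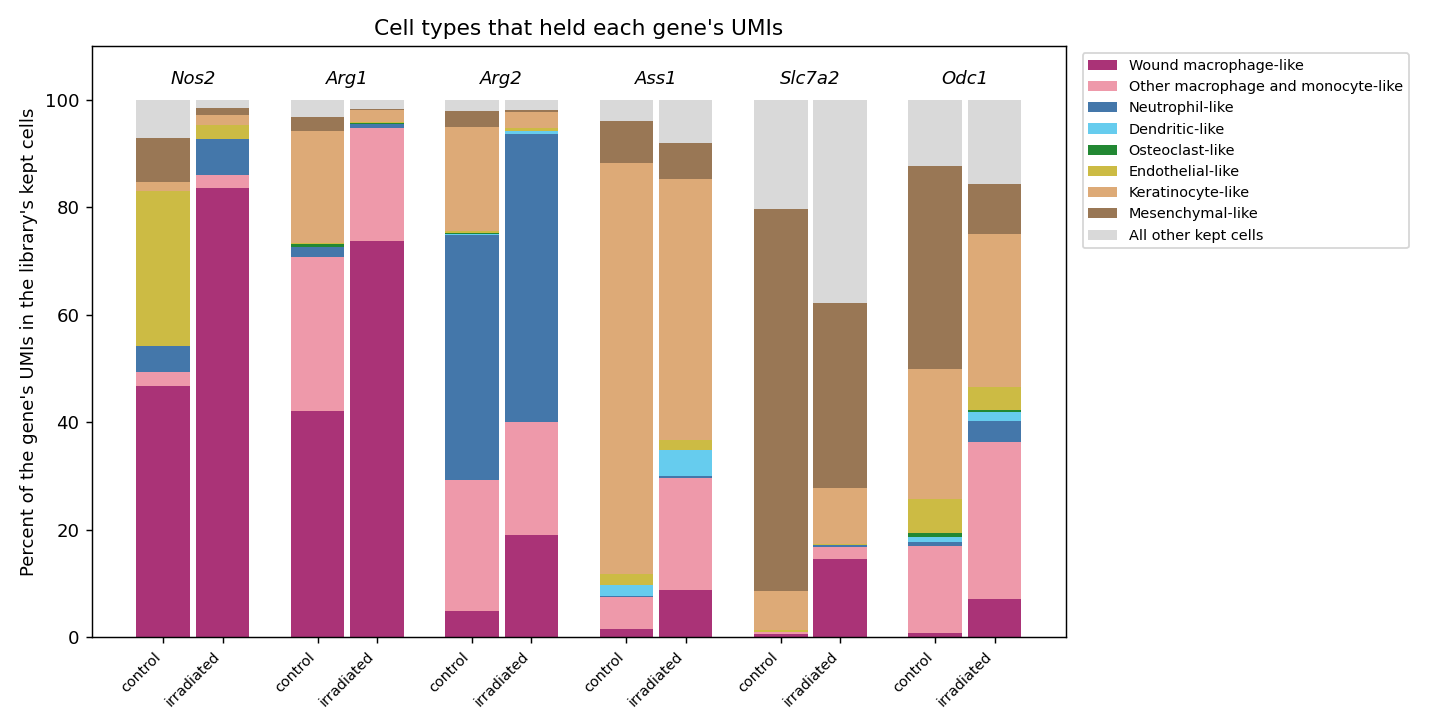
Percent of each gene's UMIs in the kept cells of a library that came from each cell type, as stacked bars for control and irradiated. The wound macrophage-like share of Nos2 is 46.7% in the control bar and 83.6% in the irradiated bar, and neutrophil-like cells hold 45.5% and 53.6% of Arg2.

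Over the whole macrophage and monocyte-like class, 5 of the 6 genes were higher in the irradiated library and none was lower. Nos2 was at 17.8 CPM in the control library and 118 CPM in the irradiated library, a log2 ratio of 2.73 (interval 2.55 to 2.91). For Arg1 the class levels were 232 and 921 CPM (log2 ratio 1.99, 1.94 to 2.04), so the Nos2 and the Arg1 RNA of the class were both more abundant in the irradiated library. Slc7a2 was at 7.05 and 23.6 CPM (1.74), Ass1 at 35.1 and 77.6 CPM (1.15) and Arg2 at 105 and 182 CPM (0.79). Odc1 stayed within the 1.5-fold limit at 170.3 and 197 CPM (0.21). Of the 13968 genes measured in the class, 6.14% were higher by the same rule and 11.6% lower, and their median log2 ratio was -0.11. The wound macrophage-like cluster is a larger part of the irradiated class, so it was also left out. Without it, 3 of the 6 genes were higher, where 5.48% of 13649 genes were higher and 10.9% lower. Arg1 then had a log2 ratio of 1.32, Ass1 of 1.18 and Nos2 of 2.02, the last at the background level given above. Arg2 (0.33) and Slc7a2 (0.11) no longer passed. With 5 clusters weighted alike, the log2 ratios were 1.24 for Nos2, 1.03 for Arg1 and 0.85 for Slc7a2, while Arg2 (0.58) and Ass1 (0.50) fell short of 1.5-fold. That weighting left out the interferon-led monocyte-like cluster, with 38 control cells, and the small mast-led cluster, which had too few cells. With a stricter cell filter and the cells clustered again, Nos2 was at 1.82, Arg1 at 1.53, Ass1 at 1.06 and Slc7a2 at 0.70, and Arg2 (0.41) did not pass; the Nos2-rich cells reached no name there and were outside the class.

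Within the wound macrophage-like cluster itself, 5 of the 6 genes were again higher in the irradiated library, by smaller ratios, where 6.46% of 9547 genes were higher and 8.57% lower. Nos2 had a log2 ratio of 1.23 (1.05 to 1.41), Slc7a2 of 0.91 (0.52 to 1.32), Arg1 of 0.84 (0.77 to 0.90), Arg2 of 0.77 (0.59 to 0.95) and Odc1 of 0.64 (0.38 to 0.91). Ass1 did not pass, at 116 and 123 CPM (0.09, -0.20 to 0.39). Shares of cells with a UMI moved the same way: Nos2 in 30.1% and 61.0% of the cells, Arg1 in 80.5% and 93.0%. After thinning to 2000 UMIs a cell, which left out 1 control and 14 irradiated cells, the Nos2 shares were 23.2% and 43.7% and the Arg1 shares 71.4% and 86.5%. Nos2 on thinned cells had a log2 ratio of 0.79. Summed red cell genes also differed in this cluster, at 13.8 CPM in the control library and 636 CPM in the irradiated library, and all 10 measured interferon-response genes were higher; their part in the result was not tested.

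The size of these ratios depended on how finely the wound cells were split. At a higher clustering resolution they formed a cluster led by Cxcl3, Mmp12, Arg1 and Nos2, with 52 control and 359 irradiated cells, and a cluster led by Arg1, Mmp12, Pf4 and Ccl9, with 162 and 195 cells. The first was the Nos2-rich part: 604 and 793 CPM of Nos2 (log2 ratio 0.39) and 3293 and 3982 CPM of Arg1 (0.27). All 6 genes were within 1.5-fold there, where 6.01% of 8742 genes were higher and 4.88% lower. In the second, 4 of the 6 genes were higher, where 6.10% of 8534 genes were higher and 6.19% lower. Arg1 was at 795 and 2707 CPM (1.77) in that second cluster and Nos2 at 3.67 and 26.2 CPM (2.84), with Arg2 at 0.77 and Odc1 at 0.63. Its control cells came in near equal numbers from the wound macrophage-like cluster, 61 cells, and from inflammatory monocyte-like cells, 59 cells, while 107 of its irradiated cells came from the former. The Nos2-rich cells were thus 0.595% of kept control cells and 5.04% of kept irradiated cells, and their levels of the 6 genes were within 1.5-fold between libraries. With both finer clusters summed, the log2 ratio was 1.84 for Nos2 and 1.34 for Arg1.

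**Figure D3:**
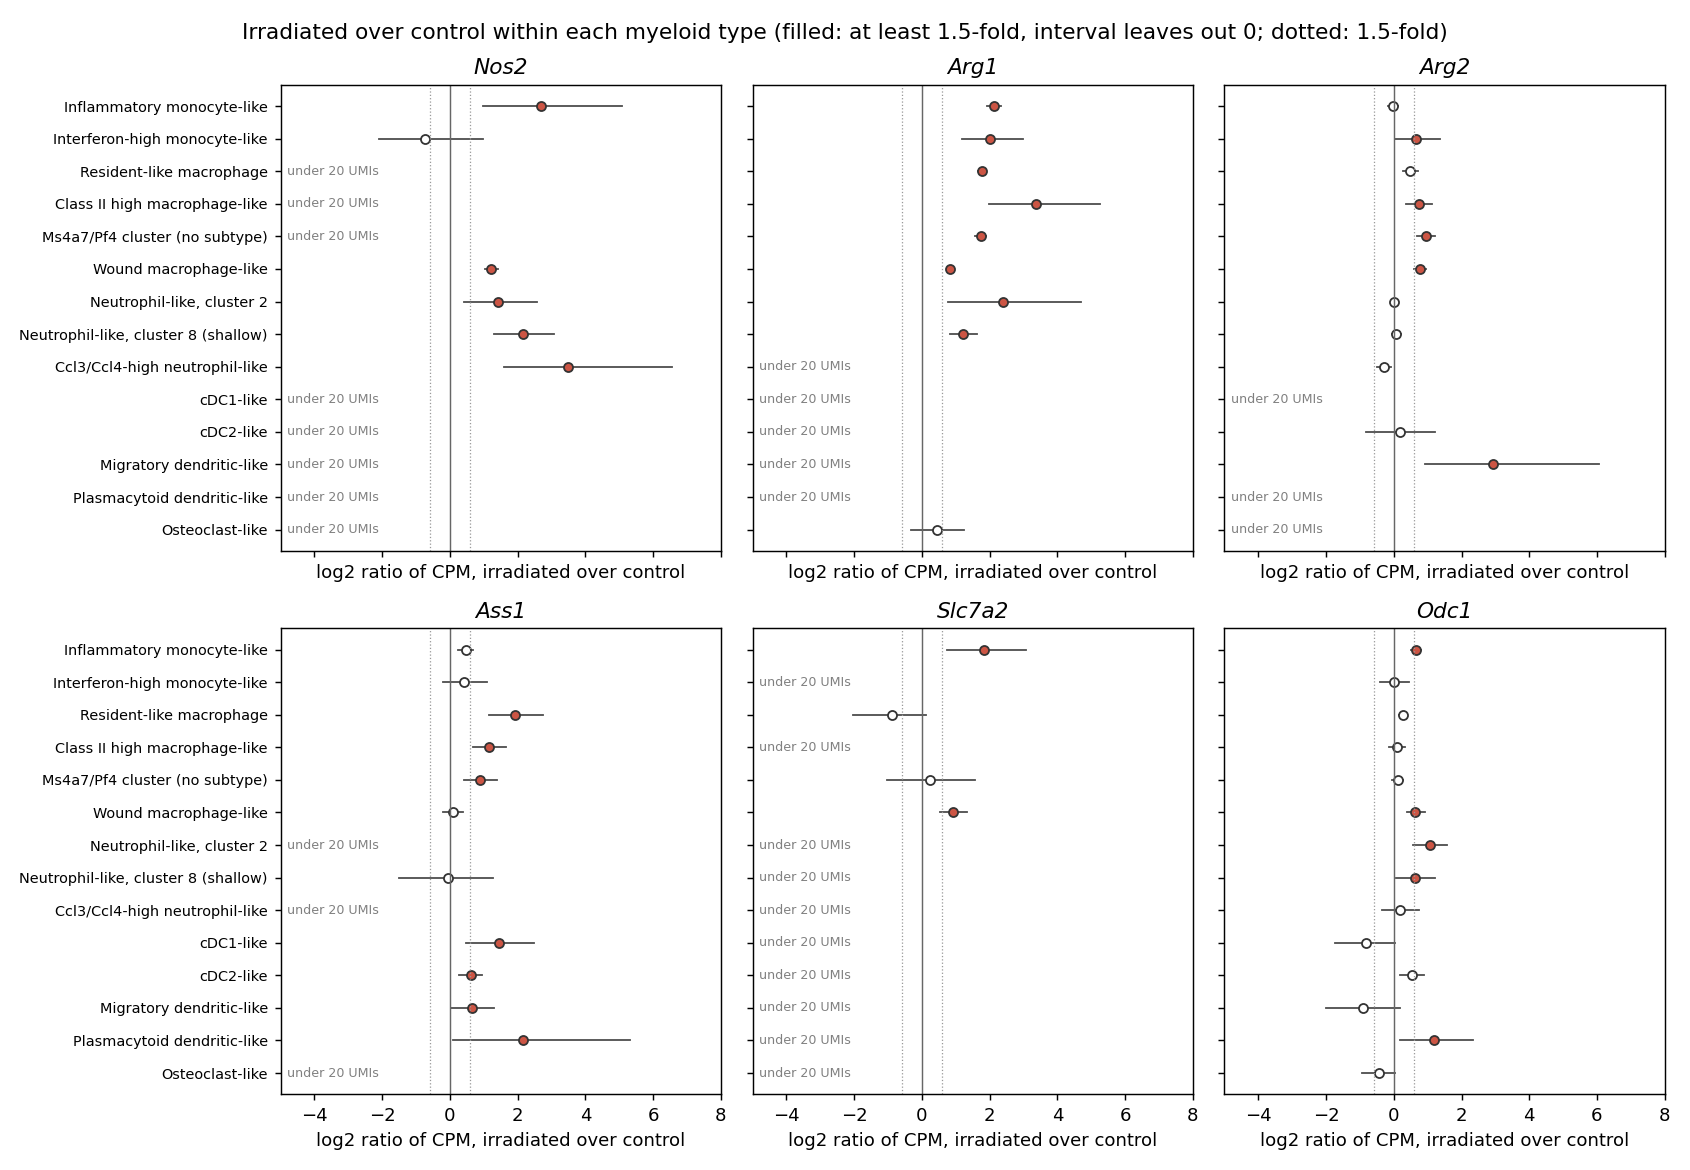
Log2 ratio of CPM, irradiated over control, of the 6 genes in 14 myeloid types, with the 95% counting interval as a line, filled points where the ratio was called and dotted lines at 1.5-fold. Filled points for Arg1 lie right of 0 in every macrophage and monocyte-like cluster shown, while Arg2 in the neutrophil-like clusters lies close to 0.

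Arg1 was the member that differed most evenly over the other macrophage and monocyte types. In inflammatory monocyte-like cells 4 of the 6 genes were higher, where 4.83% of 10521 genes were higher and 5.04% lower. Arg1 had a log2 ratio of 2.12, Slc7a2 of 1.83 (from 9 and 36 UMIs), Odc1 of 0.65 and Nos2 of 2.70. The Slc7a2 value rests on low counts, at most 1 UMI in a control cell and 7 UMIs in an irradiated cell. These cells belong to the rest of the class, whose Slc7a2 could not be set apart from free RNA. The Nos2 value (0.97 to 5.09) rests on 3 and 22 UMIs, at the background level given above, so no Nos2 expression is read from it. In resident-like macrophages 2 of 5 measured genes were higher, where 5.43% of 11407 genes were higher and 5.56% lower: Arg1 (1.78) and Ass1 (1.93, at the background level given above). In the Ms4a7 and Pf4 cluster 3 of 5 were higher, where 5.06% of 9735 genes were higher and 5.58% lower: Arg1 (1.73), Arg2 (0.95) and Ass1 (0.89). That cluster's summed red cell genes were at 12 and 2090.4 CPM, and their part in the result was not tested. In class II high macrophage-like cells 3 of 4 were higher, where 5.07% of 10153 genes were higher and 6.46% lower: Ass1 had 33.8 and 75.4 CPM (1.16), Arg2 53.2 and 88.5 CPM (0.73), and Arg1 4 and 202 UMIs at the background level. In the interferon-led monocyte-like cluster, with 38 control cells, 2 of 5 were higher, where 3.96% of 8655 genes were higher and 4.55% lower: Arg1 (2.01) and Arg2 (0.66, 0.03 to 1.37). The control Arg1 level of that cluster lies near the T and NK-like level given above. In its irradiated cells, the tenth with most UMIs held 91.7% of the Arg1. Nos2 did not pass there, at 16.5 and 9.90 CPM from 5 and 32 UMIs.

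In neutrophils the Arg2 level was near equal in the 2 libraries and the Nos2 level was not. Over all neutrophil-like cells 2 of the 6 genes were higher, where 5.23% of 9257 genes were higher and 22.3% lower, with a median log2 ratio of -0.32. Arg2 had a log2 ratio of 0.03 (-0.03 to 0.10), or 0.35 when scaled by the median gene ratio, and Odc1 was higher at 52.7 and 91.8 CPM (0.80). Nos2 was at 11.3 and 41.3 CPM (1.87, 1.31 to 2.49), in 9 of 831 and 84 of 1269 cells. In the control library, 1 cell of neutrophil-like cluster 8 held 15 Nos2 UMIs, so this ratio rests on few control cells. The cluster high in Ccl3 and Ccl4 had the widest Nos2 difference, 2 and 111 UMIs, which is 7.18 and 80.9 CPM (3.49, 1.61 to 6.56), in 0.870% and 10.9% of cells. Keratinocyte-like cells, which should lack Nos2 and are deeper at medians of 20813.5 and 25691 UMIs, had a Nos2 UMI in 0.284% and 1.10% of cells. Nos2 was the only one of 3 measured genes called in that neutrophil cluster, where 6.40% of 5481 genes were higher and 5.66% lower. Its summed red cell genes were at 50.3 and 3488 CPM, and their part in the result was not tested.

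In the other neutrophil-like clusters, Nos2, Arg1 and Odc1 were called, 3 of 4 measured genes in cluster 2 and 3 of 5 in cluster 8. In cluster 2, 4.77% of 7217 genes were higher and 20.4% lower, and in cluster 8, 5.80% of 6219 genes were higher and 6.06% lower. Nos2 had 8.65 and 22.9 CPM (1.41) in cluster 2 and 14.6 and 64.8 CPM (2.15) in cluster 8. In cluster 8, 1 control cell held 15 Nos2 UMIs, most of that cluster's control Nos2, so its ratio rests on few cells. Odc1 had log2 ratios of 1.06 and 0.64. The Arg1 UMIs of cluster 8 came from few cells, 97 UMIs in 4 control cells and 126 UMIs in 11 irradiated cells, and the Arg1 of cluster 2, at 2.88 and 15 CPM, lies below the background in T and NK-like cells.

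In dendritic-like cells the recycling enzyme gene Ass1 was higher in the irradiated library in every type, and Arg2 and Odc1 in some. Over 167 control and 175 irradiated conventional and migratory dendritic-like cells, Ass1 was at 106 and 182 CPM (0.77, 0.49 to 1.06), in 40.7% and 61.7% of cells at median depths of 8158 and 10399 UMIs. Arg2 was higher too, by a wider ratio at a lower level, 12.8 and 26.9 CPM (1.08), against the 15.5 CPM of irradiated T and NK-like cells. These 2 of 3 measured genes compare with 6.06% of 8514 genes higher and 6.26% lower. Ass1 was higher in each dendritic-like type: conventional type 1 (1.45, where 6.86% of 3836 genes were higher and 6.83% lower), conventional type 2 (0.61, where 5.68% of 7395 genes were higher and 6.15% lower), migratory (0.65, where 8.32% of 3716 genes were higher and 7.08% lower) and plasmacytoid (2.16, where 7.54% of 5056 genes were higher and 6.41% lower). The number of cells was small, 23 and 19 type 1 cells and 30 and 41 plasmacytoid cells, and the plasmacytoid value rests on 2 and 18 UMIs. Of those 18 irradiated UMIs, 8 came from 1 cell, so the plasmacytoid call rests on few cells. Migratory cells also had more Arg2, 2 and 25 UMIs (2.92, 0.92 to 6.05), beside summed red cell genes of 9.93 and 9023 CPM whose part was not tested. Plasmacytoid cells had more Odc1, 48.4 and 111 CPM (1.20). Nos2 and Arg1 were near absent from dendritic-like cells, with 1 and 6 UMIs in the irradiated library and none in the control library. Osteoclast-like cells, 43 and 22, had no called member among the 2 measured, where 7.25% of 6928 genes were higher and 7.75% lower.

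Outside the myeloid cells the same genes moved differently, which the following values show without a test between cell types. Endothelial-like cells had 3 of 6 genes higher and 1 lower, where 8.49% of 13353 genes were higher and 5.0% lower. Nos2 was level (0.03), Slc7a2 was lower at 3.90 and 0.761 CPM (-2.36), and Arg2 was higher at 3.18 and 12.2 CPM (1.93). In both libraries the endothelial-like Slc7a2 level lies below the T and NK-like level given above and cannot be set apart from free RNA. The irradiated endothelial-like Arg2 level also lies below that of irradiated T and NK-like cells. Keratinocyte-like cells had 1 gene higher and 2 lower, where 7.32% of 16319 genes were higher and 7.42% lower. Their Arg2 was at 20.7 and 9.15 CPM (-1.18) and their Slc7a2 at 16.5 and 9.87 CPM (-0.74), both lower. In mesenchymal-like cells 4 of 6 were higher, where 10.6% of 16595 genes were higher and 6.09% lower; Ass1 was at 11.4 and 41.6 CPM (1.87). Arg1 had a UMI in 3.86% and 10.8% of these mesenchymal-like cells at 2.69 and 4.61 CPM.

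Cells with both Nos2 and Arg1 RNA were found in both libraries, and they made up most of the Nos2 cells. In the macrophage and monocyte-like class, 32 of 1937 control cells (1.65%, Clopper-Pearson 95% interval 1.13 to 2.32) and 296 of 2614 irradiated cells (11.3%, 10.1 to 12.6) had at least 1 UMI of each gene. The product of the single shares would give 7.33 and 117 such cells. Of the Nos2 cells, 32 of 40 (80.0%, 64.4 to 90.9) and 296 of 323 (91.6%, 88.1 to 94.4) also had Arg1, against 17% and 28.4% of the cells without Nos2. Only 8 control cells and 27 irradiated cells of the class had Nos2 without Arg1. Arg1 alone was common, in 323 and 651 cells. At 2000 UMIs a cell, the shares with both were 1.31% and 7.53%, and 24 of 29 and 187 of 211 Nos2 cells had Arg1. With the stricter filter and the cells clustered again, the shares with both were 0.516% and 2.59%, and 53.3% and 76.4% of Nos2 cells had Arg1.

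Nearly all double-positive cells lay in the wound macrophage-like cluster, 31 of the 32 and 276 of the 296. Both genes were found there in 27.4% of the control library's cells (19.5 to 36.6) and in 58.5% of the irradiated library's (53.9 to 63.0), and after thinning in 20.5% and 39.5%. These shares were 14.9% and 50.2% with doublets kept, 14.5% and 50.7% with both finer clusters counted, and 5.34% and 15.2% with the stricter filter and the cells clustered again. The counts were close to what the single shares give in that cluster, 27.4 and 268 cells, since Arg1 was common there with or without Nos2: 91.2% and 95.8% of Nos2 cells, and 75.9% and 88.6% of the others. In the higher-resolution split, 53.8% and 71.3% of the Nos2-rich cluster had both, and 1.85% and 12.8% of the Pf4 and Ccl9 cluster. Outside the wound macrophage-like cluster, 1 of 1824 and 20 of 2142 class cells had both, with 35 Nos2 cells in the irradiated library.

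Neutrophils and endothelial cells with Nos2 were mostly cells without Arg1. In neutrophil-like cells, 1 of 9 and 5 of 84 Nos2 cells had an Arg1 UMI. The cluster high in Ccl3 and Ccl4 had 42 Nos2 cells and 13 Arg1 cells in the irradiated library and no cell with both among 385, which allows a share of up to 0.779%. With so few cells of each gene, the product of the single shares also gives few cells with both, so no exclusion is read. Arg2 was in 9 of 9 and 75 of 84 Nos2-positive neutrophil-like cells, beside 80.1% and 86.8% of all neutrophil-like cells. Among endothelial-like cells, 0 of 88 and 1 of 53 Nos2 cells had Arg1. No Arg1 share of cells without Nos2 is set beside these neutrophil-like and endothelial-like counts. They thus do not show that Nos2 and Arg1 exclude each other.

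**Figure D4:**
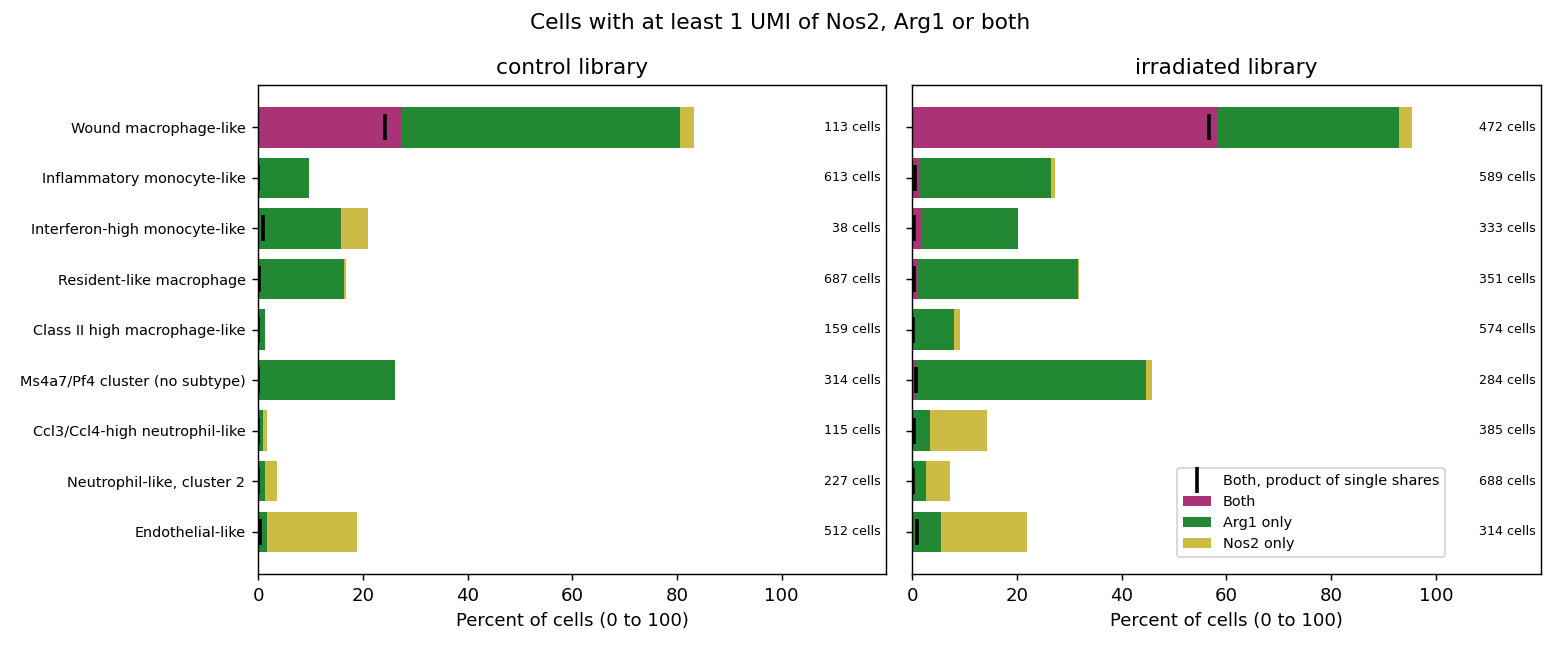
Percent of cells with at least 1 UMI of both Nos2 and Arg1 (purple), Arg1 only (green) or Nos2 only (yellow) in 9 cell types of each library, with cell numbers at the right and a black tick at the share with both that the product of the single shares gives. Purple reaches 27.4% and 58.5% in wound macrophage-like cells, and no purple shows for the Ccl3 and Ccl4 high neutrophil-like cells.

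Within the wound macrophage-like cluster, cells with more Nos2 had more Arg1 in each library. Control cells without Nos2 UMIs (79 cells) had Arg1 at 1386 CPM, cells with 1 to 4 Nos2 UMIs (17 cells) at 3927 CPM and cells with 5 or more (17 cells) at 4423 CPM. In the irradiated library the same groups of 184, 123 and 165 cells had 3055, 4084 and 4567 CPM. The cells without Nos2 thus held the least Arg1 in both libraries, and it was there that the libraries lay farthest apart. The counting intervals of the upper control groups, 3572 to 4307 and 4111 to 4752 CPM, overlap. These control groups hold few cells, and 1 cell with 4 Nos2 UMIs held 142 Arg1 UMIs. Of the control cells with 1 to 4 Nos2 UMIs, 82.4% had Arg1, with a median of 21 UMIs. Control cells without Nos2 had Arg1 in 75.9%, with a median of 5 UMIs. The median depths of the groups were 7689, 5907 and 8961 UMIs in the control library and 9282.5, 8650 and 10509 UMIs in the irradiated library. Arg2 was at 229, 236 and 493 CPM over the control groups and at 353, 528 and 539 CPM over the irradiated groups. Slc7a2 did not follow in steps: 34.0, 210 and 65.3 CPM in the control library, and 47.9, 36.7 and 213 CPM in the irradiated library. In the 2 control groups with Nos2, of 17 cells each, only 17.6% and 23.5% of cells had a Slc7a2 UMI. These control values thus rest on few cells. Odc1 ran the other way in point estimates, from 140.2 to 95 CPM and from 221 to 191 CPM, with counting intervals of 114 to 170 against 54.3 to 154 CPM and 200 to 244 against 171 to 211 CPM that overlap. Per cell, the median Arg1 count was 10 UMIs (middle 50% of cells 2 to 33, highest 144) in the control library and 28.5 UMIs (10 to 59, highest 262) in the irradiated library. Nos2 counts were more uneven than Arg1 counts: the tenth of cells with most UMIs held 71.9% and 51.4% of the Nos2, against 38.6% and 32.9% of the Arg1, and 93.3% and 87.3% of the Slc7a2.

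**Figure D5:**
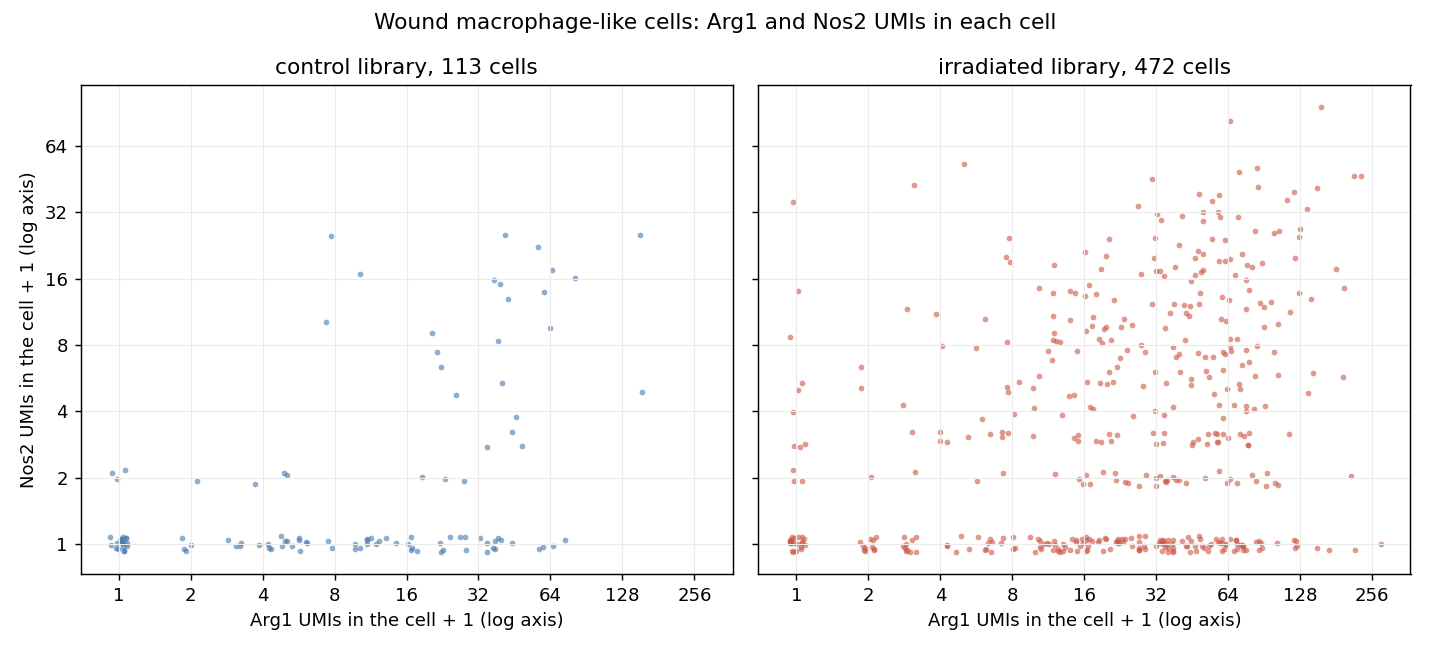
Arg1 UMIs (horizontal) and Nos2 UMIs (vertical) of each wound macrophage-like cell, both plus 1 on log axes with a small random shift so that points do not overlap, for 113 control and 472 irradiated cells. Cells with 5 or more Nos2 UMIs are 15% of the control cells and 35.0% of the irradiated cells, with a median of 37 and 44 Arg1 UMIs against 5 and 17 in cells without Nos2; they are widely spread, and some lie at the left with few or no Arg1 UMIs.

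Of the other pairs among the 6 genes in this cluster, Nos2 with Slc7a2 departed most from the product of the single shares in the irradiated library. There, 76 cells had both where the product gives 60.4, and in the control library 7 where it gives 4.51. Nos2 and Odc1 were found together in 144 irradiated cells, against 154 from the product. Arg1 and Arg2 together were in 375 cells, against 373. These counts are descriptions of single libraries, in which the genes share each cell's depth.

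Cells with both genes differed from cells with Arg1 alone in other genes, after thinning to 2000 UMIs a cell. The following genes were chosen from the fixed lists after their values were seen. Il1a, Inhba, Mmp12, Mrc1 and Fabp5 are also markers used to name clusters, with Inhba, Mmp12 and Fabp5 among those of wound macrophage-like cells. In the irradiated wound macrophage-like cells, 181 with both and 215 with Arg1 only, Il1a (interleukin 1 alpha) was at 1511 and 614 CPM, Inhba (activin A subunit) at 1354 and 369.8 CPM, and Mmp12 (macrophage elastase) at 2403 and 851 CPM. The resident marker Mrc1 was at 44.2 and 207 CPM, and the lipid-associated marker Fabp5 at 331 and 1174 CPM. In the control library, with 23 and 57 cells, Il1a was at 1804 and 342 CPM, Inhba at 1087 and 281 CPM, Mmp12 at 3326 and 1816 CPM, Mrc1 at 109 and 158 CPM and Fabp5 at 848 and 1614 CPM. The point values of the 5 genes differed in the same direction in both libraries. In the control library, 23 and 57 cells at 2000 UMIs each leave few Mrc1 UMIs, so no direction is read for Mrc1 there. As the genes were chosen after their values were seen, the shared direction is only a description. The hemoglobin gene Hbb-bs was at 8.3 CPM in irradiated cells with both and at 1137 CPM in those with Arg1 only.

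By correlation of log2(CPM + 10) over 24 type and library combinations of at least 30 cells, the genes most like Nos2 among 6366 compared were Ereg (Pearson r 0.94), Ptges (0.93) and Serpinb2 (0.91). Those most like Arg1 were Jag1 (0.87), Flrt2 (0.87) and Tfec (0.86), and those most like Arg2 were Slc7a11 (0.97), Ets2 (0.95) and Slc16a3 (0.95). Between members, r was 0.82 for Nos2 and Slc7a2, 0.76 for Arg1 and Slc7a2, 0.61 for Nos2 and Arg1 and 0.23 for Arg1 and Arg2. The points share 2 libraries and their depth, so these values only describe likeness of pattern.

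Most other genes of the arginine pathways did not pass the 1.5-fold rule, while a few differed by more than the members Arg2 and Odc1. Counts below include the members that belong to each list, and are to be read beside the 6.14% of all genes of the class that were higher and the 11.6% that were lower. Over the macrophage and monocyte-like class, 1 of 5 measured arginine uptake genes was higher, Slc7a2, and none was lower, while the widely expressed transporter partner Slc3a2 was at 334 and 359 CPM. Of 8 nitric oxide synthase and cofactor genes 2 were higher, Nos2 and Gch1, and 2 lower, Nos3 (-1.69, from 20 and 10 UMIs) and Qdpr. Gch1 encodes GTP cyclohydrolase, which starts the synthesis of the tetrahydrobiopterin that nitric oxide synthases need, and was at 109 and 199 CPM (log2 ratio 0.86); Qdpr, which regenerates that cofactor, was at 37.9 and 22.8 CPM (-0.74). In the urea cycle list 3 of 5 were higher, all of them members, and 1 was lower, Slc25a15, the mitochondrial ornithine carrier gene, at 6.18 and 4.11 CPM (-0.59). Asl, which completes the recycling step begun by Ass1, did not pass at 24.0 and 25.6 CPM. None of the 16 polyamine genes was higher and 2 were lower, Paox (-0.90) and Mtap (-0.62), a share close to that of all genes. Among proline and creatine genes, Gatm was higher (0.67), and Oat (-0.62), which leads from ornithine to proline, and Prodh (-1.09) were lower. The median log2 ratio was -0.01 for uptake, -0.33 for nitric oxide, 0.79 for the urea cycle and 0.00 for polyamines, beside -0.11 for all genes of the class.

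Within the wound macrophage-like cluster, 6.46% of all genes were higher and 8.57% lower. Uptake genes had 1 of 5 higher (Slc7a2) and 1 lower (Slc7a6), nitric oxide genes 1 of 6 higher (Nos2) and urea cycle genes 2 of 5 higher (Arg1 and Arg2). Gch1 did not pass there, at 201 and 267 CPM (0.40). Of 16 polyamine genes, 1 was higher, Odc1, which is about the share of all genes, and 4 were lower: Srm, the spermidine synthase gene, at 13.8 and 4.20 CPM (-1.71), Mtap (-1.59), Amd1 (-0.69) and Eif5a (-0.64), whose product carries the spermidine-derived residue hypusine.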

How the data were processed

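The deposited values are raw UMI counts in 2 tables of the 10x Genomics 3' v3 assay, 1 per group; per the file headers the authors made them with cellranger 5.0.1, and mm10 is the build in the submitters' processing notes. Gene positions are from the GENCODE annotation of GRCm38. Barcodes under 500 genes or 1000 UMIs, or above 10% mitochondrial UMIs, were dropped, followed by Scrublet doublet removal (569 control cells, 5.0%, and 72 irradiated cells, 0.867%), which left 76.9% and 85.8% of 11369 and 8302 barcodes. With scanpy 1.11.5, 2000 variable genes without the 6 members, 30 components, 15 neighbours and Leiden resolution 1.0 gave clusters (Python 3.11.15, leidenalg 0.10.2). Names came from 28 marker lists; the naming rule was adjusted after the clusters were seen, so that class II genes did not count against dendritic names and red cell genes named nothing. Counts were summed per type and library, and ratio intervals (exact conditional Poisson, scipy 1.17.1) were tested on simulated data. The simulated counts were Poisson draws, the model behind the interval. That check thus does not cover UMIs held by few cells, as for Nos2 and Slc7a2. A share was also taken at 2000 UMIs per cell. With 1 library per group no test was run.

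All 6 members are named in each type; in other lists up to 4 genes with the widest ratios are named, except genes said to be chosen later. The members and lists were chosen with earlier results of these data known. Some list genes also serve as naming markers (Mrc1, Chil3, Mgl2, Clec10a, Cd163, Il1a, Tnf, Acod1). Alternatives covered cell and doublet filters, clustering, thinning, scaling and the mix of clusters. The result of the proline and creatine list in the wound macrophage-like cluster is not reported here.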

Additional observations from a re-analysis of the deposited data

Results flagged for a closer look

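Arg2 was higher in irradiated macrophage and monocyte-like cells (log2 ratio 0.79) and lower in irradiated keratinocyte-like cells (-1.18), opposite directions that lie 1.97 apart. Slc7a2 was higher in macrophage and monocyte-like cells (1.74) and lower in endothelial-like cells (-2.36), which is 4.10 apart. Slc7a2 was also lower in keratinocyte-like cells (-0.74), 2.48 from the macrophage and monocyte-like value. With 1 library per group the 3 differences were not tested. The endothelial-like value rests on 38 control and 4 irradiated UMIs. Its levels lie below those of T and NK-like cells and cannot be set apart from free RNA. The class value of Slc7a2 fell to 0.11 without the wound macrophage-like cluster.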

How the results depend on the processing

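Of 148 alternative values of 15 results, 97 stayed within the counting interval of the reported value and 51 moved beyond it. None of the called log2 ratios reversed, while shares and ratios that were not called could not be labelled reversed. The Arg2 ratio of neutrophil-like cells (0.03), which was not called, was -0.07 on thinned cells and -0.05 with clusters weighted alike. For the class, the Arg1 log2 ratio (1.99) was 1.93 with a stricter cell filter, 2.06 on thinned cells, 2.10 with median scaling, 1.53 with the stricter cells clustered again, 1.03 with 5 clusters weighted alike and 1.32 without the wound cluster. The Nos2 ratio (2.73) was 2.37, 1.82, 1.24 and 2.02 for thinned cells, stricter cells clustered again, equal weights and no wound cluster. The class share with both genes in the irradiated library (11.3%) was 13.2% with 8% of barcodes removed as doublets, 7.53% thinned, 2.59% with stricter cells clustered again and 9.33% at 2 UMIs of each gene; in the control library (1.65%) it was 0.516% with stricter cells clustered again. In that setting Arg1 was in 53.3% and 76.4% of Nos2 cells.

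In the wound macrophage-like cells the Arg1 ratio (0.84) was 0.76 with the stricter filter, 1.31 with doublets kept, 0.68 with 8% removed, 1.34 at resolution 1.5, 1.19 with stricter cells clustered again and 0.91 with median scaling. The Nos2 ratio (1.23) was 1.81, 1.84 and 1.45 with doublets kept, at resolution 1.5 and with stricter cells clustered again, and 0.79 thinned. The share with both genes was 14.9% and 50.2% with doublets kept, 14.5% and 50.7% at resolution 1.5 and 5.34% and 15.2% with stricter cells clustered again; in the irradiated library alone it was 63.5% with 8% removed, 39.5% thinned and 50% at 2 UMIs. When the stricter cells were clustered again, the Nos2-rich cluster reached no name and left the class, which lowers these shares. At resolution 1.5 both finer clusters count as wound cells. Reclustering, the 2 UMI limit, the class without its wound cluster and all wound cell alternatives were chosen after seeing the data. A limit on keratin and collagen RNA removed 5 and 1 class cells. No paired analysis was possible because each group has 1 library. Depth limits Nos2 and Slc7a2 outside the wound cluster, where counts lie near the level of free RNA.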

Other observations

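Genes of inflammatory activation and of the interferon response were higher beside Nos2 and Arg1, and those of alternative activation were not. In the macrophage and monocyte-like class, 12 of 14 inflammatory partner genes were higher in the irradiated library and 1 was lower (median log2 ratio 1.07, against -0.11 for all genes, of which 6.14% were higher and 11.6% lower), with Acod1, the itaconate enzyme gene, at 14.0 and 83.5 CPM, Il1a at 44.2 and 214 CPM, and the scavenger receptor gene Marco lower at 3.50 and 0.388 CPM. All 11 measured interferon-response genes were higher (median 1.85). Of 11 alternative activation genes, none was higher and 5 were lower, among them Mgl2 at 12.3 and 2.17 CPM and Retnla at 3.00 and 0.775 CPM, so that Arg1 differed from the genes it is usually grouped with. Of 12 hypoxia-response genes 5 were higher, with Egln3 at 13.4 and 41.3 CPM. The smaller share of resident-like macrophages in the irradiated class moves with these values. So does the larger share of wound macrophage-like cells, 5.83% of the control class and 18.1% of the irradiated class. Outside that cluster, Acod1 was at 8.8 CPM in the control library and 24.7 CPM in the irradiated library. Il1a was at 8.995 and 19.4 CPM there. Egln3, at 8.2 and 7.13 CPM, was not higher there. The list counts above include the wound macrophage-like cluster. The part of either share was not tested.

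Within the wound macrophage-like cluster, 8 of 11 inflammatory genes were higher (median 1.38), 10 of 10 interferon-response genes (2.04) and 5 of 12 hypoxia genes (0.49), and 1 of 7 alternative activation genes was lower. Cxcl10 was at 14.7 and 118 CPM, and Irf7 at 10.8 and 215 CPM. The eotaxin gene Ccl24 was the lower gene, at 204 and 15.3 CPM. All genes of this cluster had a median log2 ratio of -0.08, with 6.46% higher and 8.57% lower.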
